A study of Homo sapiens with 6 samples.

Results

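The genes described here are those of the human mitochondrial genome, a small circular DNA that is present in many copies per cell. They were chosen by position: every row of the deposited count table that lies on chromosome M, 36 of 28862 rows in all. These are 13 mRNAs, 2 rRNAs and 21 tRNAs, and 1 further tRNA gene of the annotation, MT-TH, is not analysed here. The RNA came from SH-SY5Y, a human neuroblastoma line of sympathoadrenal character. The series asks what SMN1, the gene of the survival motor neuron protein, does to the transcriptome of these cells when it is overexpressed. It compares 3 libraries of cells given a control plasmid with 3 libraries labelled as overexpressing SMN1, and the labels give no time point, dose or clone. SMN1 was lower, not higher, in the latter, at 20.02 ± 0.432 CPM in the control group and 16.00 ± 1.08 CPM in the other (SD, n = 3; log2 fold change -0.32, SE 0.06, edgeR adjusted p = 9.40e-05). The near-identical copy SMN2 was lower as well (-0.30, edgeR adjusted p = 0.0031). The sources used here do not give how reads that match both genes were counted. Nor do they give whether RNA of the overexpression construct would be counted as SMN1. The second group is therefore called the SMN1-labelled libraries throughout.

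Both strands of the mitochondrial DNA are transcribed into long RNAs that span many genes and are then cut. The heavy-strand transcript carries the rRNAs, most tRNAs and all mRNAs except MT-ND6, which lies on the light-strand transcript. The tRNAs that stand between the longer genes are cut out by RNase P at one end and by ELAC2 at the other, which frees the mRNAs and rRNAs, and most mRNAs then receive a poly(A) tail. MT-ND6 mRNA is known for lacking one. The mRNAs encode core subunits of respiratory complexes I, III and IV and of ATP synthase (complex V), whose other subunits come from the nucleus. Complex II has no mitochondrially encoded subunit. MTERF1 is a protein that binds within MT-TL1, just past the rRNA genes, and has been described as stopping transcription there.

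The gene order and the joins between genes are shown first because later paragraphs refer to them. Whether the changes follow gene order was not tested. From the start of the heavy-strand transcript the order is MT-TF (chrM:577-647), MT-RNR1 (chrM:648-1601), MT-TV (chrM:1602-1670), MT-RNR2 (chrM:1671-3229), MT-TL1 (chrM:3230-3304) and MT-ND1 (chrM:3307-4262), on the plus strand of GRCh38 with GENCODE v29. MT-TF, MT-TV and MT-TL1 flank the 2 rRNA genes, and their sequences are given 5′ to 3′, with the MTERF1 binding sequence in capitals:
MT-TF: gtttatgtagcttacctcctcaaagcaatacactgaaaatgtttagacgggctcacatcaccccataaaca
MT-TV: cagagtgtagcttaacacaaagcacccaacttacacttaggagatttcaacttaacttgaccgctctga
MT-TL1: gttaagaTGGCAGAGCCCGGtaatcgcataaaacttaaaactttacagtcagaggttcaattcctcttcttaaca
That sequence of 13 bases, TGGCAGAGCCCGG, is the stretch from base 8 to base 20 of the gene and lies at chrM:3237-3249. It was cut from MT-TL1, so its match there was fixed in advance. Searched on both strands, it was in 1 of the 37 mitochondrial genes of the annotation, MT-TL1 itself. Of 35116 nuclear promoter windows, 1 held it (0.00285%).

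Of the mRNAs, 3 neighbouring pairs on the same strand share bases, with no tRNA between them. MT-ATP8 and MT-ATP6 share 46 bases (chrM:8527-8572), MT-ND4L and MT-ND4 share 7 (chrM:10760-10766), and MT-ATP6 and MT-CO3 share 1, base 9207. A read within a shared stretch cannot be assigned to 1 member of the pair, and the sources used here do not give how such reads were treated. The 2 longer joins, with the shared bases in capitals and 20 bases on each side, read:
MT-ATP8 into MT-ATP6: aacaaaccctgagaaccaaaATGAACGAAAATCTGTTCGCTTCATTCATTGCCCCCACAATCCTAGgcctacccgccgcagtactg
MT-ND4L into MT-ND4: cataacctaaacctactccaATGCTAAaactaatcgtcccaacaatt
The capitals of each join open with the ATG of the downstream gene and run to the stop codon of the upstream gene.

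The 6 libraries held 30379242 to 40275498 reads assigned to genes. The unit of a level is CPM, computed on library sizes after TMM scaling, and levels of different genes are compared only in FPKM, which also divides by gene length. Each fold change is the SMN1-labelled group over the control group. No label says that the 3 libraries of a group are separate cultures. The spread that p-values measure is thus only that of these libraries and may be technical. Changes were spread over the whole table. Of 15829 genes tested, 28.2% were lower and 28% were higher at an edgeR adjusted p of at most 0.05, with a median log2 fold change of 0.00, and 60.7% had CPM values that did not overlap between the groups.

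RNA of the mitochondrial genome took a smaller part of the SMN1-labelled libraries. Its share of all gene-assigned reads was 5.95%, 6.24% and 6.35% in the controls and 4.79%, 4.85% and 4.91% in the SMN1-labelled libraries. The groups did not overlap, and the means were 6.18 ± 0.209% and 4.85 ± 0.0575% (SD, n = 3). With 3 libraries against 3, the exact permutation test cannot give a two-sided p below 0.1, which is its value here (0.133 after Benjamini-Hochberg adjustment over the 28 shares and ratios compared). In bulk RNA, fewer cells with many mitochondria and less mitochondrial RNA per cell cannot be told apart.

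In reads, the loss lay in the mRNAs. Reads of the 13 mRNAs fell from 5.19 ± 0.173% to 3.85 ± 0.0761% of a library, without overlap. The far smaller tRNA share fell as well, from a mean of 0.005218% to 0.004004% of a library, also without overlap. The 2 rRNAs together made up 0.981 ± 0.0545% and 0.993 ± 0.0210%, and here the groups overlapped (exact permutation p = 0.6). Within the mitochondrial reads the rRNA share was therefore larger, at 16.0%, 15.2% and 16.4% in the controls and 21.23%, 20.20% and 20.01% in the SMN1-labelled libraries. There were 5.30 ± 0.243 mRNA reads per rRNA read in the controls and 3.88 ± 0.154 in the SMN1-labelled libraries, again without overlap (exact permutation p = 0.1, the smallest possible).

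**Figure D1:**
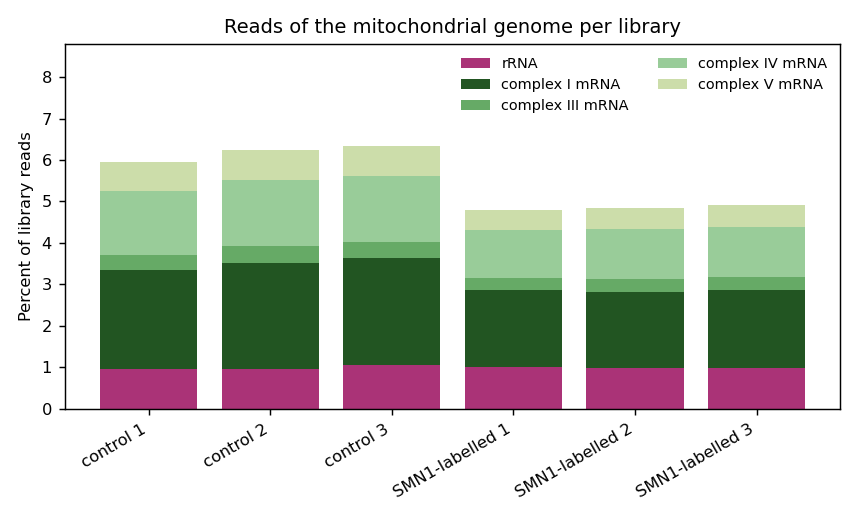
Percent of each library's gene-assigned reads (vertical axis) that fell on mitochondrial rRNAs and on the mRNAs of each respiratory complex (stacked bars), for 3 control and 3 SMN1-labelled libraries. tRNAs are too few to be seen, and the rRNA segment is near 1% in every library while the mRNA segments are shorter in the SMN1-labelled libraries.

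Tested gene by gene, 23 of the 36 rows passed the filter on low counts: all mRNAs and both rRNAs, and 8 of 21 tRNAs. Of these 23, 21 were lower in the SMN1-labelled libraries, 0 were higher and 2, MT-RNR2 and MT-TV, did not pass, against 28.2% of all genes lower and 56.2% called in either direction. The 22 genes other than MT-RNR2 had CPM values that did not overlap between the groups, beside 60.7% of all genes tested. All 13 mRNAs were lower, with log2 fold changes from -0.78 to -0.34 and a median of -0.58, and remained so under every alternative run (all 13 in each).

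Complex I, the NADH dehydrogenase, has 7 mitochondrially encoded subunits. They form its membrane arm, which pumps protons. All 7 were lower, with a median log2 fold change of -0.57, and they held both the largest and the smallest change among the mRNAs. MT-ND3 was at 1391, 1367 and 1767 CPM in the controls and 899.6, 886 and 854.8 CPM in the SMN1-labelled libraries. Control library 3 stood above the other two, and even the lowest control value exceeded every SMN1-labelled value. The log2 fold change of MT-ND3 was -0.78 (SE 0.06, edgeR adjusted p = 1.30e-10), a 1.71-fold lower level. MT-ND2 was at 5884, 6267 and 6543 CPM against 3959, 3645 and 3857 CPM, 1.63-fold lower and also without overlap (-0.71, SE 0.04, edgeR adjusted p = 3.74e-13). MT-ND5, the longest of the mRNAs at 1812 bases, was at 2538, 2840 and 2680 CPM against 2147, 2118 and 2080 CPM. That is a 1.27-fold lower level, the smallest change of the 13, and still without overlap (-0.34, SE 0.04, edgeR adjusted p = 2.54e-08). MT-ND1 (-0.57), MT-ND4L (-0.49) and MT-ND4 (-0.42) lay between these.

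MT-ND6, the complex I subunit encoded on the light-strand transcript, was at 125.5, 124.8 and 136 CPM in the control libraries. In the SMN1-labelled libraries it was at 79.61, 84.45 and 74.68 CPM. All control values exceeded all SMN1-labelled values, and the fall was 1.62-fold (-0.69, SE 0.04, edgeR adjusted p = 4.86e-12). MT-ND5 and MT-ND6 are neighbours on opposite strands, with MT-ND5 ending at base 14148 and MT-ND6 reaching from 14149 to 14673. Between these neighbours there were 49.45, 43.94 and 50.76 reads of MT-ND6 per 1000 of MT-ND5 in the controls, and 37.08, 39.87 and 35.90 in the SMN1-labelled libraries (exact permutation p = 0.1, the smallest possible). The library kit keeps strand, but the sources used here do not give whether the counting used it, so reads of the opposite transcript cannot be told apart from those of MT-ND6.

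Complex III passes electrons from ubiquinol to cytochrome c, and its single mitochondrial subunit is cytochrome b. MT-CYB was at 3798, 4034 and 4064 CPM in the controls and 2939, 3023 and 3029 CPM in the SMN1-labelled libraries. The groups did not overlap, and the fall was 1.32-fold (-0.40, SE 0.03, edgeR adjusted p = 4.18e-10). Among the mRNA reads its share was larger in the SMN1-labelled libraries, 8.02 ± 0.0465% against 7.40 ± 0.0681%, since the other mRNAs together had fallen further.

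The 3 subunits of complex IV, cytochrome c oxidase, were all lower, with a median of -0.59. MT-CO1, the catalytic subunit that holds the heme groups, was at 7706, 7892 and 7906 CPM against 5755, 5961 and 6110 CPM. This was 1.32-fold lower (-0.40, SE 0.03, edgeR adjusted p = 2.75e-10). The other two, MT-CO2 and MT-CO3, fell 1.50-fold and 1.53-fold. MT-CO2, which receives electrons from cytochrome c, was at 2487 to 2670 CPM in the controls and at 1693 to 1729 CPM in the SMN1-labelled libraries. MT-CO3 was at 5699 to 6053 CPM in the former and at 3699 to 4008 CPM in the latter, so that neither gene's groups overlapped.

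ATP synthase has 2 mitochondrially encoded subunits, MT-ATP6, which forms part of its proton channel, and MT-ATP8. Both come from the shared mRNA whose join is printed above. MT-ATP6 was at 5036, 5170 and 5339 CPM against 3279, 3452 and 3584 CPM, 1.51-fold lower (-0.59, SE 0.04, edgeR adjusted p = 1.91e-12). MT-ATP8 was at 1996 to 2251 CPM against 1377 to 1453 CPM, 1.50-fold lower (-0.58, SE 0.04, edgeR adjusted p = 8.41e-12). The reads of MT-ATP8 per read of MT-ATP6 were 0.409 ± 0.0127 and 0.412 ± 0.00732, with overlapping groups (exact permutation p = 0.9). For the other shared mRNA, MT-ND4L reads per MT-ND4 read were 0.241 ± 0.00566 and 0.230 ± 0.00637. Those groups did not overlap, but the nearest values of the groups were 0.2355 and 0.2339.

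**Figure D2:**
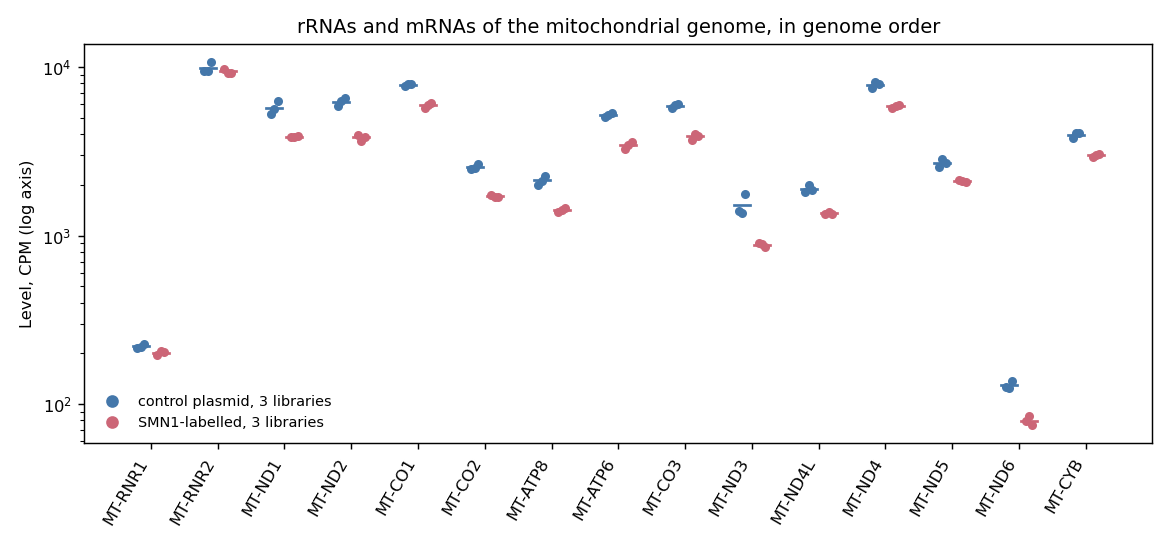
CPM (log axis) of the 2 rRNAs and 13 mRNAs in genome order, 1 point per library and a bar at each group mean, with control libraries in blue and SMN1-labelled libraries in red. The groups are apart for every mRNA, close together for MT-RNR1 and overlapping for MT-RNR2.

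The rRNAs behaved apart from the mRNAs. MT-RNR2, the rRNA of the large mitoribosomal subunit, was at 9525, 9514 and 10700 CPM in the controls and 9727, 9282 and 9280 CPM in the SMN1-labelled libraries. Its groups overlapped, and its log2 fold change of -0.07 (SE 0.04, edgeR adjusted p = 0.12) became 0.02 on FPKM, so it has no stable direction. MT-RNR1, the rRNA of the small subunit, was at 215.3, 219.1 and 226.7 CPM against 195.8, 207.1 and 202.6 CPM. Its groups did not overlap and it passed the test at a 1.09-fold lower level (-0.13, SE 0.04, edgeR adjusted p = 0.00375), but not on FPKM (adjusted p = 0.316 to 0.472 with limma) or once length and GC content were corrected for (-0.02, edgeR adjusted p = 0.677). There were 0.0223 ± 0.000972 reads of MT-RNR1 per read of MT-RNR2 in the controls and 0.0214 ± 0.00115 in the SMN1-labelled libraries, with overlap. Per length, MT-RNR2 was 27.5 ± 1.23 times as abundant as MT-RNR1 in the controls and 28.6 ± 1.58 times in the SMN1-labelled libraries. The libraries were made with a kit for mRNA, and the sources used here do not give how rRNA entered or was kept out of them.

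tRNAs were barely covered, in libraries made with an mRNA kit and size-selected after PCR, and the 3 printed above are only 69 to 75 bases long. The 21 tRNA rows held 9009 reads over all 6 libraries. The 4 rows with the most, MT-TK, MT-TL1, MT-TV and MT-TD, held 24.7%, 24.3%, 19.8% and 17.1% of them, 86.0% together. By strand, all 8 tRNAs that passed the filter lie on the heavy-strand transcript. The 8 light-strand tRNAs held 0 to 12 reads per library each, but so did MT-TR, MT-TT, MT-TL2, MT-TI and MT-TS2 of the heavy-strand transcript. Neighbours on opposite strands differed either way. MT-TD (chrM:7518-7585) had 1541 reads and MT-TS1 (chrM:7446-7514), beside it on the light-strand transcript, had 5. MT-TI, on the heavy-strand transcript, had 7 reads and MT-TQ, which shares 3 bases with it on the other strand, had 53. These counts cannot separate mature tRNA from uncut transcripts or from reads that reach in from a neighbouring gene.

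Of the 8 tested tRNAs, 7 were lower, with a median of -0.61 over all 8. MT-TK, the lysine tRNA between MT-CO2 and MT-ATP8, was at 13.65, 14.28 and 14.55 CPM against 8.779, 8.678 and 9.217 CPM. Its groups were far apart and it was 1.59-fold lower (-0.67, SE 0.07, edgeR adjusted p = 2.36e-08). MT-TL1, the leucine tRNA after the rRNAs, was at 11.75, 13.14 and 14.23 CPM against 9.615, 9.039 and 9.978 CPM. It was 1.37-fold lower (-0.45, SE 0.08, edgeR adjusted p = 3.34e-05). MT-TV, the valine tRNA between the rRNAs, was at 9.189, 9.369 and 10.10 CPM against 8.868, 8.365 and 8.761 CPM. The groups of MT-TV did not overlap, but it did not pass the test (-0.14, SE 0.08, edgeR adjusted p = 0.129).

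Further along, MT-TD, the aspartate tRNA before MT-CO2, was 1.51-fold lower (-0.59), and MT-TM, the methionine tRNA before MT-ND2, was 1.66-fold lower (-0.73, edgeR adjusted p = 0.00254). The remaining 3 rest on few reads. MT-TG, the glycine tRNA, had 19, 18 and 19 reads against 8, 13 and 12 (-1.02, SE 0.31, edgeR adjusted p = 0.00766), and it did not pass with DESeq2 (adjusted p = 0.0753). MT-TW, the tryptophan tRNA, had 24 to 40 reads per library (-0.63, edgeR adjusted p = 0.0186) and did not pass with DESeq2 (adjusted p = 0.115), without control library 2 (edgeR adjusted p = 0.0688) or without SMN1-labelled library 1 (edgeR adjusted p = 0.0538). MT-TF, the phenylalanine tRNA at the start of the heavy-strand transcript, passed narrowly (-0.33, SE 0.14, edgeR adjusted p = 0.048) and did not pass when any 1 of the 6 libraries was left out (edgeR adjusted p from 0.0593 to 0.117).

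**Figure D3:**
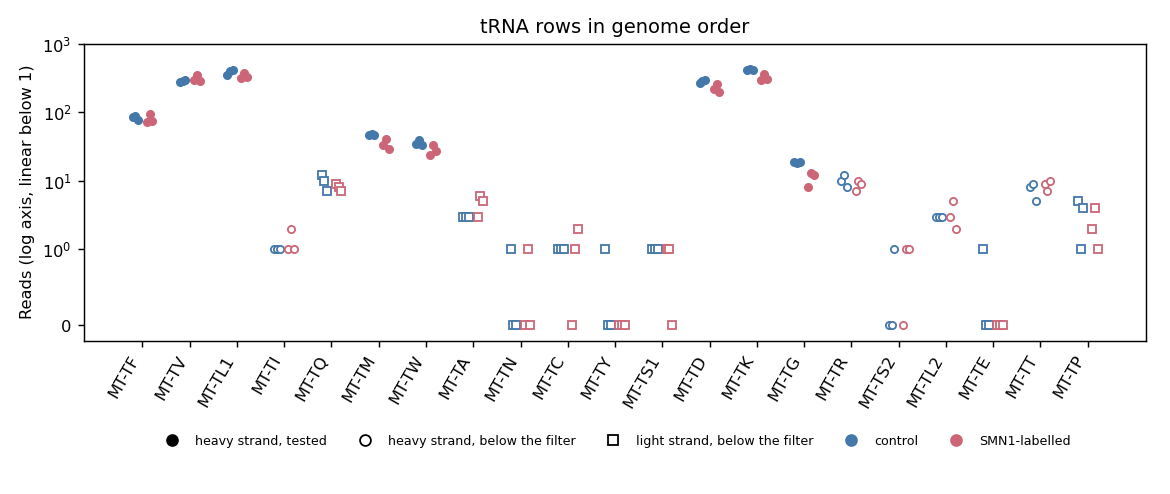
Reads per library (log axis, linear below 1) for the 21 tRNA rows in genome order, with 1 point per library, control in blue and SMN1-labelled in red. Filled points mark the 8 rows that passed the filter, and squares mark the light-strand tRNAs, none of which reached more than 12 reads in a library.

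Per length, the mRNAs did not stand at equal levels, although most are cut from the same transcript. In the control libraries MT-ATP8 was highest at 9364 ± 469 FPKM, apart from the next gene. MT-ATP6 followed at 6952 ± 135 FPKM and MT-CO3 at 6886 ± 175 FPKM, and these neighbours in the order overlapped. MT-ND4L, MT-RNR2, MT-ND1, MT-ND2 and MT-ND4, from 5830 to 5204 FPKM, formed a run in which each overlapped the next. MT-CO1 at 4643 ± 58.5 FPKM and MT-ND3 at 3979 ± 541 FPKM overlapped too. MT-CO2, MT-CYB and MT-ND5 came lower, at 3424, 3176 and 1355 FPKM, and MT-ND6 was far below at 224 ± 8.22 FPKM. For a gene as short as MT-ATP8, at 207 bases, the FPKM depends strongly on how length was entered.

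In the SMN1-labelled libraries MT-ATP8 still led at 6647 ± 214 FPKM. MT-RNR2 stood second at 5876 ± 132 FPKM, up from rank 5 in the controls at 5808 ± 329 FPKM, with the mRNAs around it lower. MT-ND6 at 147 ± 8.78 FPKM was last, below MT-RNR1 at 206 ± 6.58 FPKM. In the control libraries these last ranks were the other way round, at 224 and 211 FPKM.

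To see which members moved apart from the mRNAs as a class, the whole table was fitted again with each library scaled to its reads on the 13 mRNAs. On this scale 3.31% of all genes were lower and 73% were higher, so the adjusted p lies close to the unadjusted one. Both rRNAs were higher relative to the mRNAs: MT-RNR2 by 0.45 (SE 0.05, edgeR adjusted p = 1.89e-16) and MT-RNR1 by 0.39 (SE 0.05, edgeR adjusted p = 9.40e-12) on the log2 scale. MT-TV, which is printed above and lies between them, was higher by 0.38 (SE 0.09, edgeR adjusted p = 8.75e-05). MT-TL1, on the far side of MT-RNR2, did not pass (0.07, SE 0.09, edgeR adjusted p = 0.464), nor did MT-TF, before MT-RNR1 (0.19, SE 0.15, edgeR adjusted p = 0.249). The 3 genes from MT-RNR1 to MT-RNR2 were thus called above the mRNAs, as were 73% of all genes on this scale. Whether MT-TF and MT-TL1 differ from these 3 genes was not tested. The other 5 tested heavy-strand tRNAs, from MT-TM to MT-TG, did not pass, with values from -0.51 to -0.07.

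Some of the mRNAs were also called apart from their own sum, of which each is a part. These calls carry a limit, because on simulated counts in which all mRNAs were lowered alike this fit still called some of them. MT-ND3 (-0.25, SE 0.05, edgeR adjusted p = 5.82e-06) and MT-ND2 (-0.18, SE 0.05, edgeR adjusted p = 3.48e-04) had fallen further than the class. MT-ND6 had as well (-0.17, SE 0.06, edgeR adjusted p = 0.00328), though not without SMN1-labelled library 3 (edgeR adjusted p = 0.085). MT-ND5 had fallen less (0.18, SE 0.05, edgeR adjusted p = 7.08e-04), though not when set against all mitochondrial reads (0.10, edgeR adjusted p = 0.0588). MT-CO1, MT-CYB and MT-ND4 were also called higher, by 0.12, 0.12 and 0.10, and each lost the call without control library 3, SMN1-labelled library 2 or SMN1-labelled library 3 (edgeR adjusted p from 0.056 to 0.159). MT-ND4 lost it without SMN1-labelled library 1 too (edgeR adjusted p = 0.0652). Set against all mitochondrial reads, MT-CO1, MT-CYB and MT-ND4 were not called (0.04, 0.04 and 0.02, edgeR adjusted p from 0.431 to 0.661). The other 6 mRNAs, MT-ND1, MT-CO2, MT-ATP8, MT-ATP6, MT-CO3 and MT-ND4L, did not pass, with values from -0.09 to 0.03.

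**Figure D4:**
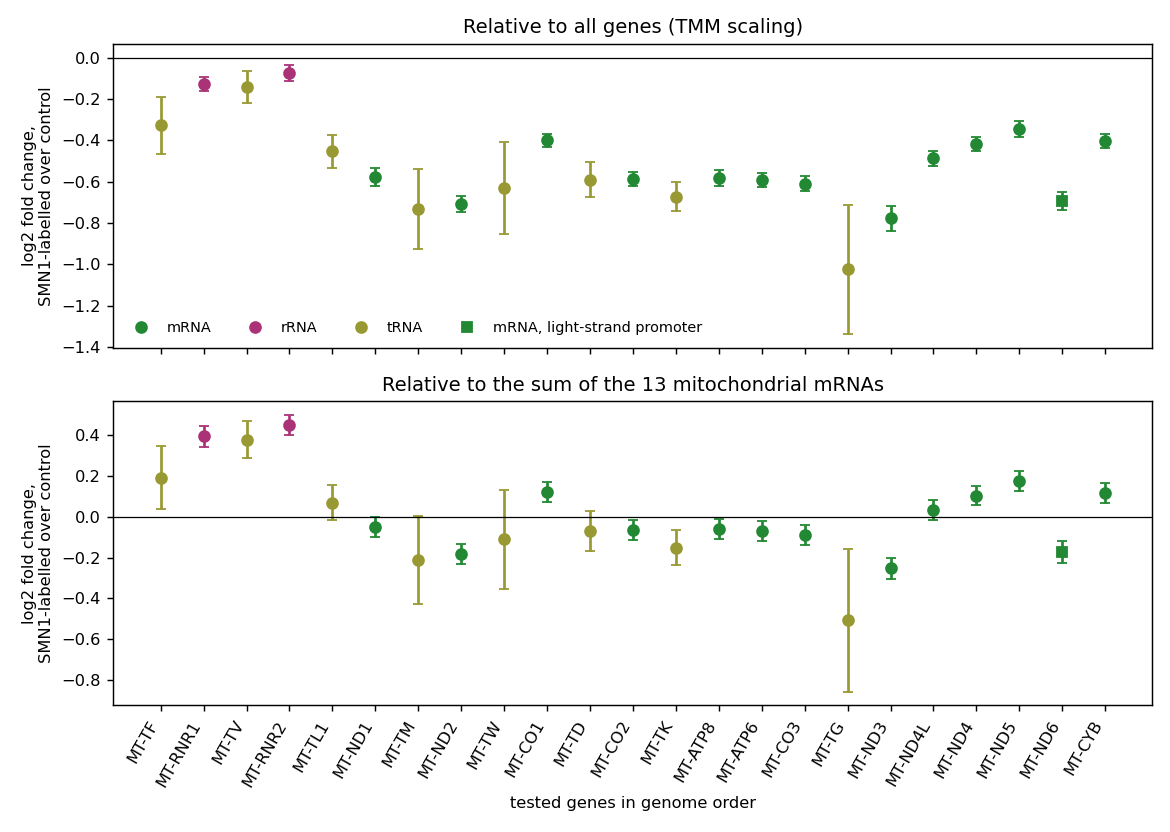
log2 fold change, SMN1-labelled over control, with its standard error, for the 23 tested genes in genome order, relative to all genes (upper panel) and to the summed mitochondrial mRNAs (lower panel). MT-RNR1, MT-TV and MT-RNR2 lie between -0.14 and -0.07 in the upper panel and between 0.38 and 0.45 in the lower one, and the other genes lie at -0.33 or lower in the upper panel.

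Length, base content and the end of the reading frame were set beside the mRNA changes as descriptions. Over the 13 mRNAs, which share libraries, Spearman's rho of the log2 fold change was 0.588 with length and 0.467 with GC content: shorter mRNAs and those with less GC tended to be further down. The mRNAs whose reading frame stops at an incomplete codon, which polyadenylation completes, are 6: MT-ND1 with TA, and MT-ND2, MT-CO3, MT-ND3, MT-ND4 and MT-CYB with a single T. Their changes ranged from -0.78 to -0.40 with a median of -0.59, and those of the 7 others from -0.69 to -0.34 with a median of -0.58. The last bases of the mRNAs with the largest and the smallest change, with the end of the frame in capitals, are:
MT-ND3 (chrM:10380-10404): caaaaaggattagactgaaccgaaT
MT-ND5 (chrM:14122-14148): atcctaaccctactcctaatcacaTAA

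Nuclear copies of mitochondrial DNA can take or give reads. The table has 47 nuclear rows named as such copies, with reads equal to 1.38% to 1.55% of the mitochondrial reads in a library. Of the 10 that were tested 9 were lower and 0 higher, beside 28.2% and 28% of all genes. MTATP6P1 on chromosome 1, which matches MT-ATP6 at 98.53% of its bases, held 82.6% of their reads, between 14% and 16.5% of the MT-ATP6 reads in each library. MTATP6P1 was at 773 ± 51.5 CPM in the controls and 554 ± 13.7 CPM in the SMN1-labelled libraries (-0.48, SE 0.04, edgeR adjusted p = 4.25e-10). MTND2P28 fell from 106 ± 4.22 to 56.9 ± 1.99 CPM (-0.90) and MTND4P12 from 39.2 ± 2.76 to 26.8 ± 3.30 CPM (-0.54). Windows of 150 bases, the read length, that also occur exactly in an annotated nuclear transcript made up 15.7% of MT-ND2, 14.5% of MT-CO1 and 1.115% of MT-ND1, and 0% of the other mRNAs and of both rRNAs. The sources used here do not give how reads that match several places were counted, so the values of these 3 genes and of the copies are uncertain. Reads placed with mismatches lie outside this exact search. The 0% therefore does not clear MT-ATP6, MT-ATP8, MT-CO3 and MT-ND4, whose copies match at 95.78% to 98.53% of aligned bases.

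Most nuclear partners of the mitochondrial subunits were lower too, complex by complex, where 28.2% of all genes were lower and 28% higher. For complex I, 30 of 36 tested nuclear subunit genes were lower and 1 was higher, with a median of -0.33 beside -0.57 for its mitochondrial mRNAs. The 4 with the smallest p were NDUFB7 (99.7 to 57.8 CPM, -0.79), NDUFB10 (180 to 120 CPM, -0.59), NDUFA13 (-0.59) and NDUFS7 (35.9 to 21.0 CPM, -0.77). After the length and GC correction they were still lower, at -0.36, -0.22, -0.31 and -0.69. For complex III, 8 of 9 were lower (median -0.31), among them the cytochrome c1 gene CYC1 (49.9 to 30.5 CPM, -0.71, and -0.36 after the correction). For complex IV, 8 of 11 were lower (median -0.46), among them COX4I1 (929 to 656 CPM, -0.50) and COX7C (413 to 303 CPM, -0.45). For complex V, 16 of 18 were lower (median -0.41), among them ATP5PD (236 to 140 CPM, -0.76) and ATP5IF1, which encodes an inhibitor of the enzyme (563 to 348 CPM, -0.69). Complex II, which is wholly nuclear, had 3 of 4 lower (median -0.23). In each of complexes I, III, IV and V the median of the mitochondrial mRNAs was the lower one, also after the correction for length and GC (-0.43 against -0.25 in complex I, -0.28 against -0.27 in III, -0.45 against -0.31 in IV and -0.53 against -0.37 in V). The difference between the 2 genomes was not tested, and the ranges of nuclear and mitochondrial genes overlapped in complexes I, III, IV and V.

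**Figure D5:**
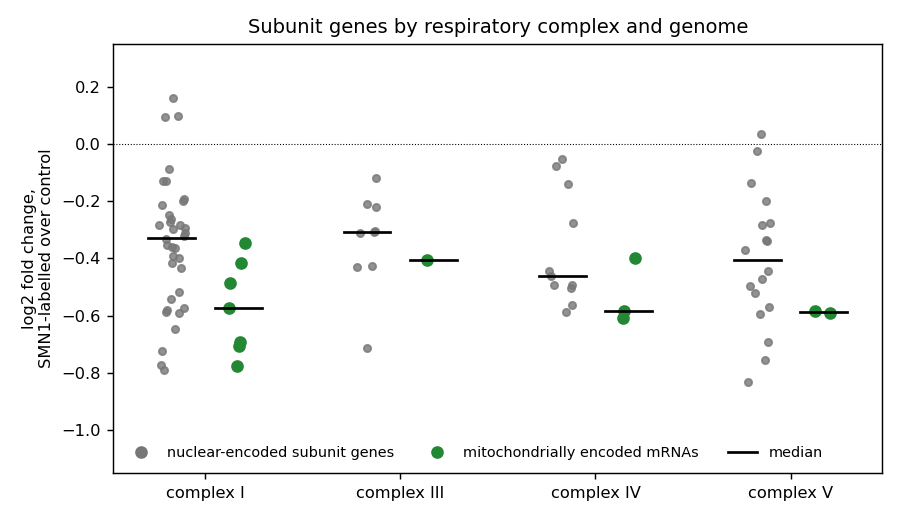
log2 fold change, SMN1-labelled over control, of nuclear-encoded subunit genes (grey) and mitochondrially encoded mRNAs (green) by respiratory complex, 1 point per gene with a bar at the median. In these 4 complexes (complex II is not drawn) nuclear medians lie between -0.46 and -0.31 and mitochondrial medians between -0.59 and -0.40.

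Nuclear genes that act on mitochondrial DNA were called in both directions, at shares near those of all genes (28.2% lower and 28% higher). Of 10 tested genes of mitochondrial transcription, 2 were lower (20%) and 3 higher (30%). POLRMT, the mitochondrial RNA polymerase, was at 73.54, 73.74 and 70.59 CPM against 81.01, 71.47 and 71.36 CPM, with overlap (0.04, SE 0.05, edgeR adjusted p = 0.501). TFAM, which packages the DNA and opens its promoters, was at 11.87 ± 0.519 CPM against 14.27 ± 0.424 CPM and TFB2M, its partner at the promoter, at 25.74 ± 0.312 CPM against 31.52 ± 1.58 CPM. Both rose (0.27 with edgeR adjusted p = 0.00164, and 0.29 with edgeR adjusted p = 2.63e-05). The elongation factor TEFM, at 2.20 ± 0.268 against 2.29 ± 0.139 CPM, did not pass (0.06, edgeR adjusted p = 0.754), and neither did MTERF1, whose site is printed above (0.09, edgeR adjusted p = 0.426). MTERF2, of the same family, rose (0.40). MRPL12, a mitoribosomal protein also described as a partner of POLRMT, fell from 147 ± 3.21 to 93.7 ± 1.43 CPM (-0.65). After the correction for length and GC, TFAM was at 0.00 (edgeR adjusted p = 0.978) and POLRMT became a gene called higher (0.20, edgeR adjusted p = 1.19e-04), so the calls of both depend on that choice. MRPL12 was still lower, by a smaller amount (-0.23).

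Of 19 genes that maintain mitochondrial DNA, 5 were lower and 5 higher, 26.3% each way and so near the background. MPV17 (-0.66), an inner membrane protein, the nuclease ENDOG (-0.91), the single-stranded DNA binding protein SSBP1 (-0.43) and the deoxyguanosine kinase DGUOK (-0.44) fell. The 5 that rose were POLG2, a subunit of the mitochondrial DNA polymerase (0.66, edgeR adjusted p = 2.44e-08), RRM2B (0.42), SAMHD1 (0.38), RNASEH1 (0.13) and the polymerase gene POLG (0.12). With length and GC corrected, SSBP1 was further down (-0.67) and ENDOG and DGUOK less far (-0.49 and -0.24).

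Of 16 genes of RNA cleavage and polyadenylation, 2 were lower (12.5%) and 6 higher (37.5%), beside 28.2% and 28% of all genes. ELAC2, which cuts tRNAs at their 3′ end, went from 130 ± 1.39 to 106 ± 2.97 CPM (-0.30, edgeR adjusted p = 1.71e-07), and HSD17B10, a subunit of mitochondrial RNase P, from 95.7 ± 3.14 to 77.8 ± 7.92 CPM (-0.30). GRSF1, of the RNA granules (0.29), and TRNT1, which adds the CCA end to tRNAs (0.38), rose. With length and GC corrected, 0 of these 16 genes were higher and 2 were lower. HSD17B10 (0.05, edgeR adjusted p = 0.357), GRSF1 (0.02, edgeR adjusted p = 0.663) and TRNT1 (0.12, edgeR adjusted p = 0.239) were then not called, while ELAC2 still was.

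Of 5 genes of mRNA stability and decay, 2 were lower and 2 higher, too few to set against the background. LRPPRC, which binds and stabilises mitochondrial mRNAs, rose from 54.97 ± 1.37 to 66.15 ± 1.54 CPM (0.27, SE 0.04, edgeR adjusted p = 3.78e-06). SLIRP, its partner, fell from 141.8 ± 9.06 to 122.6 ± 1.81 CPM (-0.21, SE 0.04, edgeR adjusted p = 1.13e-04). The helicase SUPV3L1 fell (-0.20) and the nuclease PNPT1, with which it degrades RNA, rose (0.21, edgeR adjusted p = 0.0431), although its groups overlapped. After the length and GC correction LRPPRC was at -0.01 (edgeR adjusted p = 0.923) and PNPT1 at -0.04 (edgeR adjusted p = 0.727), so that their rise rests on the uncorrected scale, while SLIRP (-0.31) and SUPV3L1 (-0.32) were still lower. PNPT1 did not pass with DESeq2 either (adjusted p = 0.116).

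Later steps gave the following counts, to be read beside 28.2% of all genes lower and 28% higher. Of 27 genes of rRNA and tRNA modification and mitoribosome assembly, 12 were lower (44.4%) and 4 higher (14.8%), with RPUSD3 (-0.40), CDK5RAP1 (-0.32), DDX28 (-0.57) and the rRNA methyltransferase MRM3 (-0.29) among the lower. Of 13 translation factors, 6 were lower (46.2%) and 4 higher (30.8%). The elongation factors GFM1 (0.35) and GFM2 (0.53) rose, while TUFM (-0.21) and TACO1 (-0.33), an activator of MT-CO1 translation, fell. Of 19 aminoacyl-tRNA synthetase genes, 4 were lower (21.1%), TARS2 (-0.50) and SARS2 (-0.46) among them, and 5 higher (26.3%), GATC (0.32) and IARS2 (0.20) among them. Of these named genes MRM3, TUFM, GFM1 and IARS2 were not called after the length and GC correction, with values of -0.03, 0.06, 0.06 and 0.05. Smaller changes that still passed were left for DDX28 (-0.29), GFM2 (0.35), TACO1 (-0.12), SARS2 (-0.24) and GATC (0.17).

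Of 8 regulators of mitochondrial biogenesis, 1 was lower, PPRC1 (-0.14), and 2 higher, GABPA (0.61) and YY1 (0.25). Of 19 genes of abundant mitochondrial proteins, 15 were lower (78.9%), with MDH2 (-0.34), TOMM40 (-0.37) and TIMM44 (-0.35) among them, and 3 higher, TOMM20 (0.38) among them. Mitochondrial proteases had 3 lower and 2 higher of 8, with CLPP (-0.45) and HTRA2 (-0.31) lower and YME1L1 (0.32) and CLPX (0.33) higher. PPRC1, HTRA2, YME1L1 and CLPX were not called after the same correction (-0.08, -0.07, 0.03 and 0.08), nor was PPRC1 with DESeq2 (adjusted p = 0.103). With that correction CLPP (-0.12), TOMM40 (-0.19), TIMM44 (-0.22), TOMM20 (0.22), GABPA (0.36) and YY1 (0.13) passed with smaller changes. Over all 15 lists 117 of 222 tested entries were lower and 37 higher, beside 28.2% and 28% of all genes. After the length and GC correction the number higher was 19. The lists were not alike. The share lower was 72.7% to 88.9% in the subunit lists of the 5 complexes and 78.9% among abundant proteins. In the other lists it was 12.5% to 46.2%.

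The cell line's own markers were present, with 11 of 12 at 5 CPM or more and TH near 0. Their sum was 26700 to 28500 CPM in the controls and 34000 to 35300 CPM in the SMN1-labelled libraries. Markers of mesenchymal and other cells, of which 9 of 10 were found, summed to 91.8 to 97.7 CPM and to 37.3 to 39.3 CPM. COL3A1, COL1A1 and KRT5 of that list were lower, and the defining markers PTPRC, PECAM1 and ALB were each under 0.1 CPM in the mean of both groups. PRRX1 and EPCAM overlapped between the groups and were not called. PRRX1 was at 2.77 against 2.21 CPM (edgeR adjusted p = 0.0802) and EPCAM at 2.56 against 2.13 CPM (edgeR adjusted p = 0.162). The sums of both marker lists moved with the groups, as the mitochondrial mRNAs did, and their part in the changes above was not tested.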

How the data were processed

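Total RNA was treated with DNase and made into stranded libraries with an mRNA kit, size-selected and sequenced as paired 150-base reads, per the labels' protocols. GRCh38, HISAT2 and DESeq2 are named, without versions, per the submitters' processing notes. The sources used here do not give the counting tool, annotation, strand setting or treatment of multiply mapping reads. The authors deposited raw read counts per gene, without normalization, and FPKM values, scaled by length and depth.

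edgeR 4.0.16 (R 4.3.3) was run on the counts with TMM factors and filterByExpr at its defaults, using a two-sided quasi-likelihood test of the group alone, Benjamini-Hochberg adjustment over all 15829 genes tested, and calls at 0.05. A standard error is the size of the log2 fold change divided by the root of the F statistic. A second fit set each library size to its reads on the 13 mitochondrial mRNAs, with no TMM factor. Shares and ratios were compared by an exact permutation test over 6 libraries. Lists are given by counts and medians, with no set test. The fits were tested on simulated data. There the second fit called the rRNAs higher, which the simulated fall of the mRNAs fixed in advance. It also called some mRNAs that had not moved apart.

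Alternatives were DESeq2 1.42.0, limma 3.58.1 (voom, and log2(FPKM + 0.1) or log2(FPKM + 1), where the fold understates changes of low genes, with and without a filter at 0.5 FPKM), other size factors and filters, a spline correction for length and GC content, the replicate block, and leaving out each library. Pairs of libraries within a group had a chi-square of 2.51 to 4.36 per degree of freedom, above counting noise, so none was treated as a duplicate. Library totals are the depth behind each value, and counting error is the only error that the depth covers.

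The mitochondrial genes, the gene lists and the tests were chosen with earlier results of these data known. Named genes are all mitochondrial rows, SMN1 and SMN2, the 3 nuclear copies with most reads, called genes from the first 4 of each list in order of p, and POLRMT, TFAM, TFB2M, TEFM, LRPPRC and SLIRP. MTERF1, POLG2, RRM2B, SAMHD1, RNASEH1, POLG and the markers were named after their values were seen. Coordinates and sequences are from GENCODE v29 on GRCh38, and 36 of 36 mitochondrial rows matched. Nuclear promoter windows are RefSeq's.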

Additional observations from a re-analysis of the deposited data

How the results depend on the processing

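All 13 mRNAs were lower in every alternative, and the number of mitochondrial genes called lower was 18 to 21. Of 436 alternative values for the 23 tested genes over 19 settings, 413 kept their direction and side of the threshold. The genes with a change were MT-TF, MT-RNR1, MT-RNR2, MT-TW and MT-TG. MT-RNR2 turned to 0.02 (0.0179) on log2(FPKM + 0.1) and on log2(FPKM + 1) with or without the filter, and the cause was not tested. The log2 ratio of the mitochondrial share was -0.35 of reads and -0.27 of summed FPKM.

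Relative to all mitochondrial reads rather than to the mRNAs, 9 genes were lower and 3 higher, instead of 3 and 7. By construction that total holds the rRNAs. There MT-TL1 was at -0.01 (-0.0118) and MT-ND4L at -0.05 (-0.0469), both not called. Leaving out 1 library gave 2 to 3 lower and 4 to 7 higher. In the make-up of the mitochondrial reads, the tRNA share turned to 0.03 (0.0313) on FPKM, and complex IV to 0.02 (0.0195) among mRNA reads only. For the nuclear lists, 19 entries were higher after the length and GC correction, instead of 37.

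Replicate numbers are shared by the groups, but same-numbered libraries did not deviate together (correlations 0.00528, 0.0133 and 0.003, against -0.0141 to 0.00763 for other pairs), and nothing says that a number marks a shared culture. With the replicate block 20 mitochondrial genes were lower, MT-TF losing its call (edgeR adjusted p = 0.0592), and 19 with the length and GC correction as well. Relative to the mRNAs the block gave 4 lower and 7 higher. Depth limits the tRNAs: 13 rows, with 241 reads in all, could not be tested.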
